A study of Mus musculus with 10 samples.

Results

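The genes described here encode 9 enzymes that oxidise or hydrolyse drugs, lipids and inhaled chemicals in the lung: the carboxylesterases Ces1d, Ces1f and Ces1g, the cytochromes P450 Cyp2b10, Cyp4b1 and Cyp2s1, the aldehyde oxidase Aox3 and the flavin monooxygenases Fmo1 and Fmo2. They are 9 of 18193 genes that had a probe set annotated to exactly 1 symbol, and all 9 were among the 14988 genes kept by the filter on low values (log2 of 5 or above, on 2 or more arrays). The members were selected on measured values, with earlier results of these arrays known, among them the high level of Ces1f, Ces1g and Aox3 in hyperoxia at day 14 and the difference between the day 29 and day 14 effects on Fmo1. Their day 14 values and anything that contains those arrays are therefore given as a description, without a test. The day 29 comparison, which uses other arrays, was tested for the members except Fmo1; earlier results at that age may also have been in view when the genes were named.

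The samples were whole lungs of ICR mice, an outbred strain, used to model bronchopulmonary dysplasia, a chronic disease of the lungs seen in preterm infants given oxygen. Pups were pooled and randomised within 12 hours of birth and kept in 80% oxygen (hyperoxia) or in room air, for 14 days (P14) or for 29 days (P29). Each age had 2 room-air arrays, labelled WT and normal, and 3 hyperoxia arrays, labelled BPD; the labels name no mutation or further treatment in any group. Whether the arrays represent different animals is not given in the labels, so the error behind each p-value is that among the arrays at hand and may be technical.

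Carboxylesterases split ester and amide bonds, and the Ces1 enzymes of the mouse, which include Ces1d (also called triacylglycerol hydrolase), act on neutral lipids as well as on drugs. Cytochromes P450 insert oxygen into their substrates with electrons passed on by a reductase, aldehyde oxidases use a molybdenum cofactor, and flavin monooxygenases oxidise nitrogen and sulfur atoms with a bound flavin. In the lung these enzymes are known mainly from club cells of the airway, alveolar type 2 cells and endothelium, and several are switched on as the lung matures.

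The arrays measured lung. The alveolar type 2 marker Sftpc lay between 14.71 and 14.86 on the log2 scale in the group means, and the liver marker Alb between 5.62 and 5.72. Ttr, the liver marker at the highest mean, lay between 6.84 and 7.19. Arrays of a group correlated at r = 0.993 to 0.996 across genes. The actin control probes gave a 3' minus 5' difference, a sign of RNA quality, of 1.33 to 2.21 in hyperoxia (n = 6) and of 0.32 to 0.74 in room air (n = 4; two-sided exact permutation p = 0.00476). Sex-linked transcripts also moved with the groups. All 5 arrays of P14 had the male pattern and both P29 room-air arrays the female pattern, while at P29 hyperoxia replicate 1 was male, replicate 2 female, and replicate 3 mixed, with Xist at 11.94 and the mean of 3 Y-linked genes at 7.71. Age and sex cannot be told apart in room air. The actin ranges of hyperoxia and room air do not overlap, so RNA quality and hyperoxia cannot be told apart either. A term for the actin difference, used below, also takes up part of the exposure. In bulk tissue, fewer cells of a type and less RNA per cell cannot be told apart.

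In outline, all 9 genes were higher in hyperoxia than in room air at P14, and the genes parted at P29, not strictly by family. There the carboxylesterases Ces1f and Ces1g were still higher in hyperoxia, Cyp2b10, Cyp4b1, Fmo1 and Fmo2 were lower, and no difference in Cyp2s1 or Aox3 passed the test. In room air every one of the 9 was higher at P29 than at P14, without overlap (36% of all genes kept). No array of P14 hyperoxia was as low as an array of P14 room air for any of them, a separation that 39.6% of all genes kept showed in that direction; since P14 values chose the members, nothing is read from this. At P29 the hyperoxia arrays of 4 genes lay wholly below room air (33.1% of all genes kept) and those of 3 wholly above (41.2%). Of the 8 genes tested there with limma, 3 were higher in hyperoxia and 3 lower at an adjusted p under 0.05, against 34.2% higher and 25.6% lower among all genes kept, so the shares by themselves are close to the background.

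**Figure D1:**
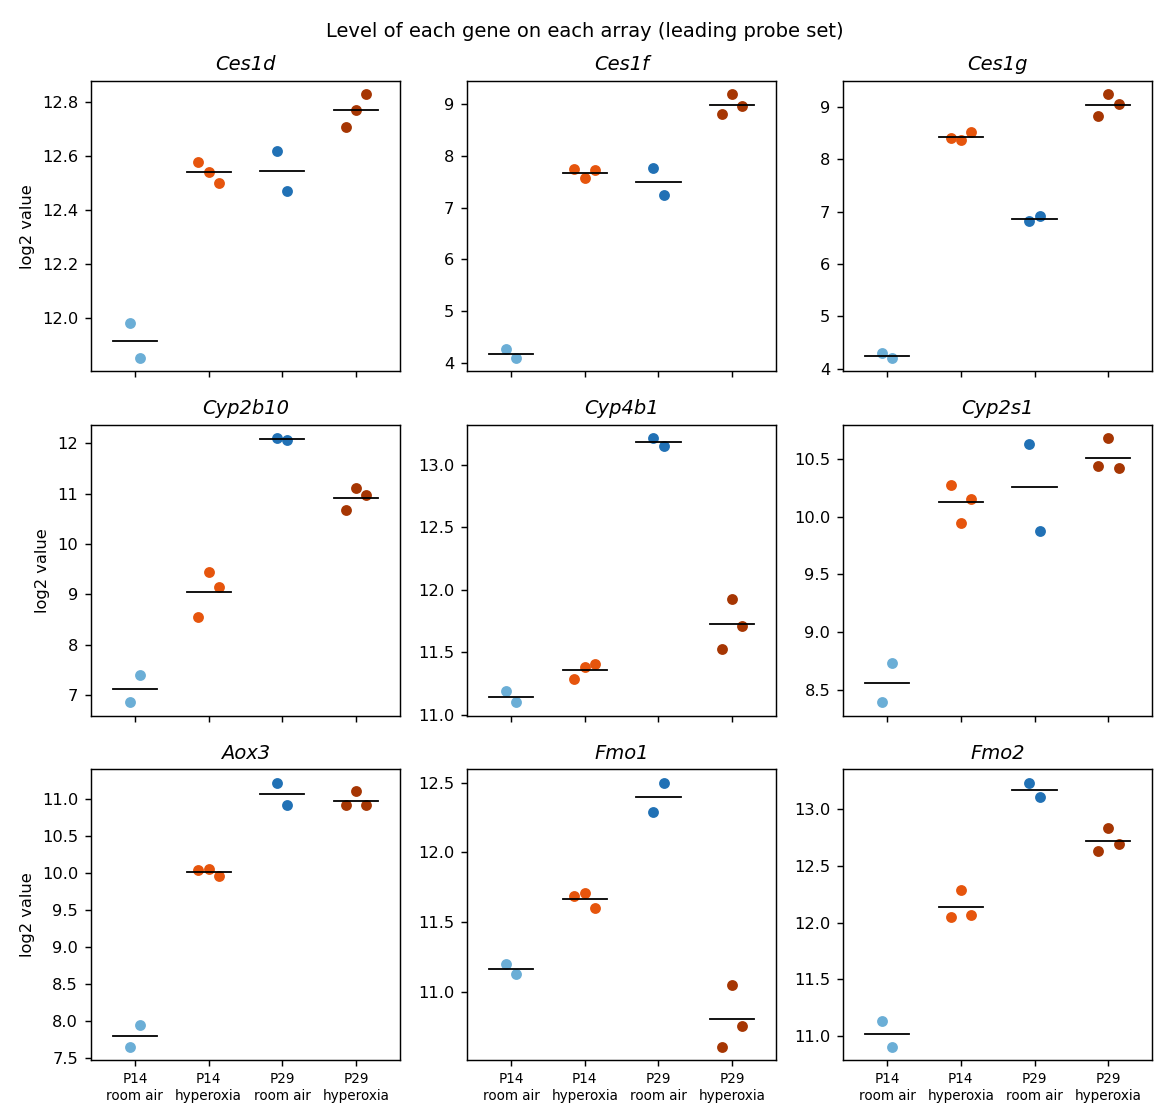
Log2 value of each of the 9 genes on each of the 10 arrays, with the leading probe set per gene; points are arrays in the 4 groups (2 room-air and 3 hyperoxia arrays at each age), horizontal lines are group means, and each panel has its own vertical scale. The P14 room-air arrays are the lowest of the 4 groups for every gene except Fmo1, whose P29 hyperoxia arrays, at 10.61 to 11.05, lie lowest.

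Promoter sequence was looked at because the members shared a direction at P14 and parted at P29. RefSeq promoters (assembly GRCm38.p6) were given for 6 of the 9 genes, in 7 windows since Fmo2 has a pair of start sites, and the 250 bases before each start were searched on both strands. Shown are Ces1g, still high in hyperoxia at P29, Cyp2b10, lower than room air at that age, and Aox3, without a P29 difference beyond its error. Capitals mark matches to the searched motifs.
Ces1g promoter, minus strand of chr8:93337210-93337459: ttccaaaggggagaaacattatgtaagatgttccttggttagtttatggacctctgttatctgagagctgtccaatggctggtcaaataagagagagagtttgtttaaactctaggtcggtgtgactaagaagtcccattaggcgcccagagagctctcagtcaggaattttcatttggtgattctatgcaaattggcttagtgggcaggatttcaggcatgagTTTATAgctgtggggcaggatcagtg
Cyp2b10 promoter, plus strand of chr7:25897408-25897657: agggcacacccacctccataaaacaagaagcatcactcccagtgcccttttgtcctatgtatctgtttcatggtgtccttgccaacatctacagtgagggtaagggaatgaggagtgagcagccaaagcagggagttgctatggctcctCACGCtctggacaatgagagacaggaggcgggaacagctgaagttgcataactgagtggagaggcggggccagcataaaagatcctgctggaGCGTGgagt
Aox3 promoter, plus strand of chr1:58112886-58113135: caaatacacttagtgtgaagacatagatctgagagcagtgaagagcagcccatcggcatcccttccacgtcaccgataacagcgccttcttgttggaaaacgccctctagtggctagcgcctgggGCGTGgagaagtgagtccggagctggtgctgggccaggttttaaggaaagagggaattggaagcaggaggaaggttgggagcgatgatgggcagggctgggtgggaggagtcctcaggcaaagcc

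The antioxidant response element core, TGACNNNGC, to which Nrf2 binds, was in none of the 7 windows, against 10.2% of all 32851 promoter windows of that length. The core of the xenobiotic response element, GCGTG, to which the aryl hydrocarbon receptor binds, matched on both strands of the Cyp2b10 window (9 and 101 bases before the start) and once in that of Aox3 (125 bases before it), and 28.2% of all windows hold it. The TATA box letters TATAAA matched once, on the opposite strand of the Ces1g window, where 12.4% of all windows hold them. The nuclear receptor half-site AGGTCA matched once, before the downstream start of Fmo2, and 14.0% of all windows hold it. The windows of Cyp4b1, of Cyp2s1 and of the upstream start of Fmo2 held none of these. A match is a run of letters only, and the absence of one concerns this window alone.

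Ces1g and Ces1f were near the low end of the scale in P14 room air and well above it in the other groups. Its log2 values were 4.30 and 4.20 on the P14 room-air arrays, 8.41, 8.36 and 8.51 in P14 hyperoxia, 6.82 and 6.91 in P29 room air, and 8.82, 9.24 and 9.05 in P29 hyperoxia. Thus no 2 groups overlapped, and the P14 hyperoxia arrays lay above those of the older room-air mice. The hyperoxia difference was 4.18 ± 0.11 (SE) at P14, or 18.1-fold. At P29 Ces1g rose by 2.17 ± 0.11, or 4.51-fold (limma adjusted p = 2.18e-07; higher on 3 of 3 hyperoxia arrays). The P14 room-air values lie under the log2 value of 5, where 27.9% to 30.2% of all probe sets on an array are found, so the level there is near the low end of the scale and the P14 fold is uncertain.

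Ces1f, which lies next to Ces1g in a cluster of carboxylesterase genes, ran in parallel. It was at 4.27 and 4.10 on the P14 room-air arrays, at 7.74, 7.56 and 7.72 in P14 hyperoxia, at 7.76 and 7.24 in P29 room air, and at 8.79, 9.18 and 8.96 in P29 hyperoxia. The P14 hyperoxia arrays overlapped those of P29 room air, with the P14 room-air arrays far below and the P29 hyperoxia arrays above. The P14 difference was 3.49 ± 0.15 (SE), or 11.2-fold, again against arrays near the low end of the scale. At P29 Ces1f rose by 1.48 ± 0.15, or 2.79-fold (adjusted p = 1.5e-05). Its only probe set is of the kind (suffix _s_at) whose probes match several transcripts, so a part of the signal may belong to neighbouring Ces1 genes.

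Ces1d differed less. Its leading probe set gave 11.98 and 11.85 in P14 room air, 12.58, 12.54 and 12.50 in P14 hyperoxia, 12.62 and 12.47 in P29 room air, and 12.71, 12.77 and 12.83 in P29 hyperoxia. The difference was 0.62 ± 0.08 (SE) at P14 and 0.22 ± 0.08 at P29 (adjusted p = 0.0361, 3 of 3 hyperoxia arrays higher). Leaving out 1 P29 array ended the call for room-air replicate 2 (0.15, adjusted p = 0.252), hyperoxia replicate 2 (0.22, adjusted p = 0.0683) and hyperoxia replicate 3 (0.19, adjusted p = 0.0991). It also ended in 6 of the other settings, among them the actin difference as a term (0.37, adjusted p = 0.156) and a scaling of every array by its 75th percentile (0.09, adjusted p = 0.388); over the alternatives other than leaving out 1 array, adjusted p ran from 9.16e-05 to 0.388. The lowest came from another probe set; the 2 others of Ces1d gave larger P29 differences of 0.75 and 0.50, and P14 differences of 1.23 and 0.79. The second of these is of a kind (suffix _x_at) whose probes can match other genes, so a part of its signal may not be that of Ces1d.

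Among the P450 genes, Cyp2b10, the mouse gene best known for its induction through the constitutive androstane receptor, had opposite differences at the 2 ages. Its log2 values were 6.85 and 7.40 in P14 room air and 8.54, 9.44 and 9.14 in P14 hyperoxia. They were 12.10 and 12.07 in P29 room air and 10.68, 11.12 and 10.97 in P29 hyperoxia. Every P14 hyperoxia array was thus above both room-air arrays of its age, and every P29 hyperoxia array below both of its age. The P14 difference was 1.91 ± 0.24 (SE), or 3.76-fold. At P29 Cyp2b10 fell by 1.16 ± 0.24, or to 0.448 of the room-air level (adjusted p = 0.0015). With the actin difference as a term the 2 values were 1.23 ± 0.50 and -1.80 ± 0.48 (adjusted p = 0.0296 at P29; range over the alternatives other than leaving out 1 array, 0.000453 to 0.0317). The room-air step from P14 to P29 was 4.96 ± 0.26, and that in hyperoxia was 1.89 ± 0.21.

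Cyp4b1, a lung P450 that oxidises fatty acids and activates some plant toxins, showed little at P14. It was at 11.19 and 11.10 in P14 room air, at 11.29, 11.38 and 11.41 in P14 hyperoxia, at 13.21 and 13.15 in P29 room air, and at 11.53, 11.93 and 11.71 in P29 hyperoxia. The hyperoxia arrays of the 2 ages thus lay close together while the room-air arrays were far apart. The P14 difference was 0.22 ± 0.11 (SE; 0.06 ± 0.24 with the actin difference as a term). At P29 Cyp4b1 fell by 1.46 ± 0.11, to 0.364 of the room-air level (adjusted p = 1.49e-06; lower on 3 of 3 arrays).

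Cyp2s1, a P450 of epithelia outside the liver, was higher in hyperoxia at P14, and its P29 groups overlapped. It was at 8.39 and 8.73 in P14 room air, at 10.28, 9.95 and 10.15 in P14 hyperoxia, at 10.63 and 9.88 in P29 room air, and at 10.44, 10.68 and 10.42 in P29 hyperoxia. The P14 groups were apart, and the P29 hyperoxia arrays fell between the room-air arrays or just above them. The P14 difference was 1.57 ± 0.19 (SE), or 2.96-fold. At P29 it was 0.26 ± 0.19 (95% interval -0.17 to 0.69, adjusted p = 0.268). The room-air pair decided that value: without P29 room-air replicate 1 it was 0.64 (adjusted p = 0.0115), and without replicate 2 it was -0.12 (adjusted p = 0.579).

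Aox3, an aldehyde oxidase, gave 7.65 and 7.94 in P14 room air and 10.04, 10.05 and 9.95 in P14 hyperoxia. At P29 it gave 11.22 and 10.92 in room air and 10.92, 11.10 and 10.91 in hyperoxia. The P29 groups overlapped, and both lay above P14 hyperoxia. The P14 difference was 2.21 ± 0.12 (SE), or 4.64-fold. The P29 difference was -0.09 ± 0.12 (95% interval -0.35 to 0.17, adjusted p = 0.517). Without P29 room-air replicate 1 the sign of this small difference turned (0.06).

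Of the flavin monooxygenases, Fmo1 stood apart in its course with age. It was at 11.20 and 11.13 in P14 room air, at 11.69, 11.71 and 11.60 in P14 hyperoxia, at 12.29 and 12.50 in P29 room air, and at 10.61, 11.05 and 10.76 in P29 hyperoxia. No 2 groups overlapped, and P29 hyperoxia was the lowest. The hyperoxia difference was 0.50 ± 0.12 (SE) at P14 and -1.59 ± 0.12 at P29, where the level was 0.332 of that in room air. Between P14 and P29 it differed by 1.23 ± 0.13 in room air and by -0.86 ± 0.11 in hyperoxia. On the leading probe sets, Fmo1 was the 1 member whose hyperoxia arrays were all lower at P29 than at P14 (20% of all genes kept). The other 8 were higher there without overlap (25.3% of all genes kept). On both other probe sets of Ces1d, however, the hyperoxia arrays of the 2 ages overlapped (differences of 0.04 and 0.11). On the dimmest probe set of Fmo2 those of P29 were lower (-0.57).

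Fmo2, the main flavin monooxygenase of the lung in most mammals, had 11.13 and 10.91 in P14 room air and 12.05, 12.29 and 12.07 in P14 hyperoxia. At P29 it had 13.23 and 13.10 in room air and 12.63, 12.83 and 12.69 in hyperoxia. The 4 groups did not overlap. With Cyp2b10, Cyp4b1 and Fmo1 this makes 4 genes whose hyperoxia arrays were above room air at P14 and below it at P29. Over all genes kept 489 did so (3.26%), out of the 5931 that lay wholly above room air at P14. Since P14 values chose the members, nothing is read from this share. The P14 difference of Fmo2 was 1.11 ± 0.11 (SE), or 2.16-fold. At P29 Fmo2 fell by 0.45 ± 0.11, to 0.733 of the room-air level (adjusted p = 0.00381). This call ended with the actin difference as a term (-0.31, adjusted p = 0.362), with the female hyperoxia array alone (-0.33, adjusted p = 0.085) and on the dimmest of its probe sets (-0.31, adjusted p = 0.0587); over all alternatives other than leaving out 1 array, adjusted p ran from 0.00049 to 0.362.

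**Figure D2:**
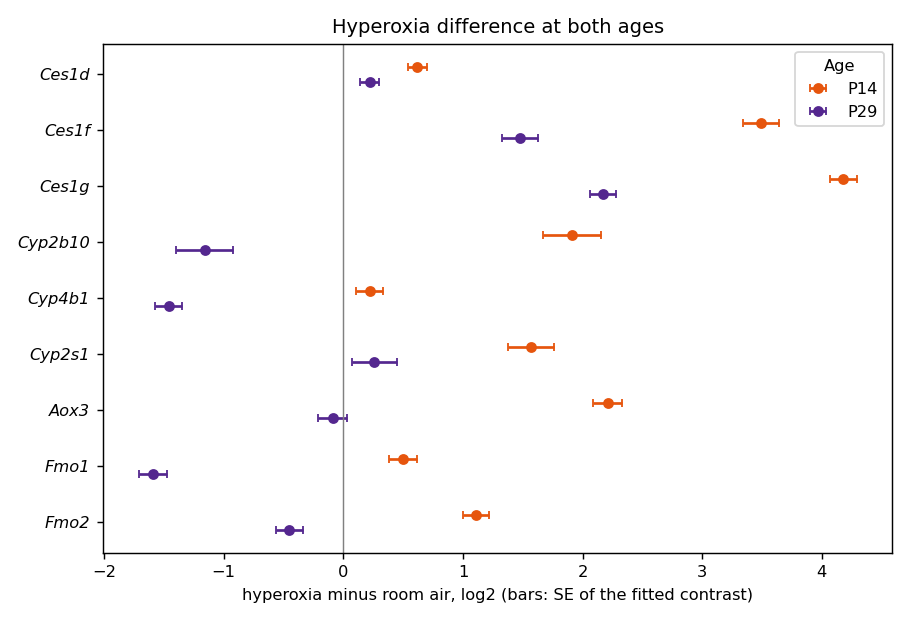
Hyperoxia minus room air on the log2 scale for each of the 9 genes at P14 and at P29; points are the fitted differences (3 hyperoxia against 2 room-air arrays at each age) and bars the SE of the contrast. The P14 differences run from 0.22 for Cyp4b1 to 4.18 for Ces1g, and the P29 differences from -1.59 for Fmo1 to 2.17 for Ces1g.

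Ces1d, Cyp2b10 and Fmo2 could be checked on several probe sets. The 3 of Cyp2b10 gave P14 differences of 1.91, 1.89 and 1.14 and P29 differences of -1.16, -1.19 and -1.32. The first pair are _s_at sets that can pick up related Cyp2b transcripts, and the third, which is not, gave the same directions. The 5 probe sets of Fmo2 gave 0.40 to 1.12 at P14 and -1.15 to -0.31 at P29. All probe sets of the 3 genes thus had the sign of the leading one at both ages, though the size differed between probe sets by more than 1.5 times for all 3 genes at P14 and for Ces1d (0.22 to 0.75) and Fmo2 at P29. Ces1f, Ces1g, Cyp4b1, Cyp2s1, Aox3 and Fmo1 had 1 probe set each.

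**Figure D3:**
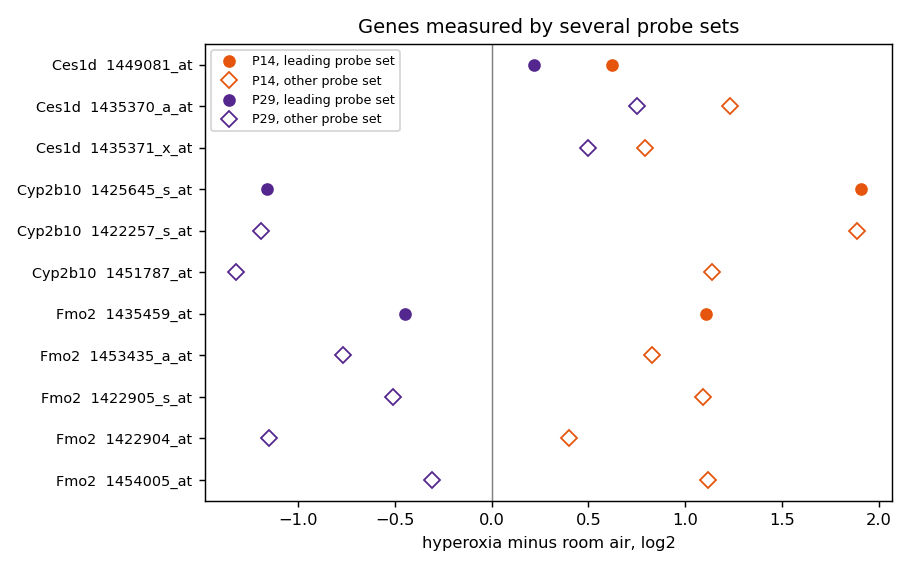
Hyperoxia minus room air on the log2 scale at P14 and P29 for every probe set of Ces1d (3), Cyp2b10 (3) and Fmo2 (5), with filled circles for the leading probe set and open diamonds for the others. Cyp2b10 and Fmo2 lie right of 0 at P14 and left of it at P29 on each probe set, and Ces1d lies right of 0 at both ages.

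The effect of hyperoxia was lower at P29 than at P14 for all 9 genes, as a description. The difference between the effects was -0.40 ± 0.12 (SE) for Ces1d, -1.31 ± 0.27 for Cyp2s1, -1.56 ± 0.15 for Fmo2 and -1.68 ± 0.15 for Cyp4b1. It was -2.01 for both Ces1f (± 0.21) and Ces1g (± 0.16), -2.09 ± 0.17 for Fmo1, -2.31 ± 0.16 for Aox3 and -3.07 ± 0.33 for Cyp2b10. The values of Ces1f and Ces1g rest on P14 room-air arrays under 5 and are uncertain for that reason, as is the median over the members, -2.01 (0.00 over all genes kept), which is one of them. The same arithmetic appears in the age steps, which share arrays with the hyperoxia comparisons: the P29 minus P14 value was 0.63 to 4.96 in room air (median 2.14) and -0.86 to 1.89 in hyperoxia (median 0.58), against a median of 0.01 over all genes in each case. As a description, and on the leading probe sets, the P14 hyperoxia arrays overlapped the P29 room-air arrays for Ces1d, Ces1f and Cyp2s1 and lay above them for Ces1g. They lay below them for Cyp2b10, Cyp4b1, Aox3, Fmo1 and Fmo2. On both other probe sets of Ces1d the P14 hyperoxia arrays lay above those of P29 room air (12.71 to 12.78 against 11.97 and 12.08 on the brighter). The same was seen on the dimmest probe set of Fmo2 (6.56 to 6.80 against 6.32 and 6.48). The share of all genes kept was not computed for this pair of groups, so nothing is read from these placings. These 2 groups differ in age, in oxygen and in sex pattern (male at P14, female in P29 room air), which cannot be told apart here.

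Correlations over the 10 arrays reflect the 4 groups and are given without a test. Ces1d correlated with Ces1f at r = 0.99 and with Ces1g at 0.94, and Cyp2b10 with Fmo2 at 0.97 and with Aox3 at 0.93, but Ces1g with Cyp4b1 at only 0.08. Among all genes kept, those most like Ces1g were Pla2g4a (r = 0.995) and Cpe (0.994). For Ces1f they were Bbof1 (0.994) and Aldh3a1 (0.993), and for Ces1d Cd55 (0.991) and Ces1f. Cyp2b10 was most like Gbp2 (0.992) and Aldh2 (0.990), Aox3 like Sec14l3 (0.996) and Timp3 (0.992), and Fmo2 like Erich3 (0.994) and Slc23a1 (0.991). Cyp4b1 was closest to Fmo5 (0.989), another flavin monooxygenase, and Hfe (0.987), Cyp2s1 to Pifo and Fam183b (both 0.989), and Fmo1 to Thbd (0.975) and Clec14a (0.973).

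The wider enzyme families were followed in 6 lists of 94 other genes, 50 of which passed the filter. At P14, 17 of the 50 rose and 10 fell, close to the shares of all genes kept (32.3% higher and 22.8% lower). At P29, 10 rose and 20 fell, a share of falls above the 25.6% of all genes, with a median of -0.16 against 0.04 over all genes. That background is not matched for level. With a filter of log2 6 or more on at least 5 arrays, the P29 median over all genes was 0.11. Some of the genes that fell were dim, such as Ces4a (mean 5.44 in P29 room air), and others were not, such as Xdh (11.09). The excess of falls is therefore not read as a trait of the families. With the actin difference as a term, 1 of the 50 rose and 9 fell at P29, and 6 rose and 3 fell at P14. Over all 14988 genes kept, that term left 1628 higher and 1277 lower at P29, and 812 and 579 at P14. Those numbers are the background for the other counts given below with the actin term. Without the term, the effect at P29 was lower than at P14 for 16 of the 50 and higher for 3. The shares of all genes there were 11.6% and 11%. The balance of calls over all genes depended on scaling: 58.6% of calls were higher at P14 and 57.2% at P29, and 45.0% and 41.2% after scaling by the 75th percentile of each array, where the median over all genes was -0.06 and -0.09 in place of 0.04.

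Other carboxylesterases did not share one course. Of 16 listed, 7 were tested, of which 1 rose and 2 fell at P14 and 2 rose and 4 fell at P29 (1 and 0, then 0 and 3, with the actin term). Ces1e, a close relative of the members in the Ces1 cluster, rose at both ages, by 2.36 ± 0.16 (SE; adjusted p = 1.7e-06) and by 1.05 ± 0.16 (adjusted p = 0.000191); its P14 room-air mean of 4.55 is also near the low end of the scale, so the P14 size is uncertain. The 3 Ces2 genes tested, whose enzymes prefer other esters, differed among themselves at P29: Ces2e rose by 0.39 ± 0.08 (adjusted p = 0.00157), while Ces2g fell by 1.30 ± 0.12 (adjusted p = 6.31e-06) and Ces2b by 0.95 ± 0.15 (adjusted p = 0.000226), with P14 values of -0.17, 0.03 and -0.02 in that order, none past the threshold. Ces4a fell by 0.62 ± 0.09 at P14 and by 0.87 ± 0.09 at P29.

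Of 44 other P450 genes of families 2, 3 and 4, 17 were tested and 19 lay below the filter. At P14 6 rose and 4 fell, and at P29 2 rose and 8 fell (median -0.23). With the actin term the counts were 3 and 1 at P14 and 1 and 2 at P29. Cyp2f2, a P450 abundant in club cells, rose by 1.07 ± 0.07 (SE) at P14 (adjusted p = 1.98e-06) and fell by 0.19 ± 0.07 at P29 (adjusted p = 0.0423). Cyp4v3 rose by 0.79 ± 0.08 at P14 (adjusted p = 2.96e-05) and was at -0.12 at P29 (adjusted p = 0.23). Cyp4f18 fell by 0.78 ± 0.09 at P14 and fell by 1.61 ± 0.09 at P29, while Cyp2j6, of a family that oxidises arachidonic acid, rose at both, by 0.82 ± 0.11 and by 1.03 ± 0.11.

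Of the molybdenum oxidases and the genes of their cofactor, 8 of 10 were tested, and 4 rose and 1 fell at P14 against 2 and 3 at P29 (1 and 0, then 0 and 1, with the actin term). Aox1, another aldehyde oxidase of the same chromosome as Aox3, rose by 2.78 ± 0.13 (SE; adjusted p = 1.46e-07) at P14 and by 0.50 ± 0.13 (adjusted p = 0.00557) at P29. Xdh, xanthine dehydrogenase, rose by 0.34 ± 0.09 at P14 (adjusted p = 0.00848) and fell by 1.73 ± 0.09 at P29 (adjusted p = 2.06e-07). Mocs1, which starts cofactor synthesis, fell by 0.55 ± 0.10 and by 0.71 ± 0.10, and Gphn, which completes it, rose by 0.26 ± 0.08 and by 0.54 ± 0.08. Of 2 other flavin monooxygenases tested, Fmo5 was at 0.11 ± 0.12 at P14 (adjusted p = 0.473) and fell by 1.58 ± 0.12 at P29 (adjusted p = 1.98e-06), and Fmo4 was at 0.13 and 0.00, with neither value past the threshold.

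**Figure D4:**
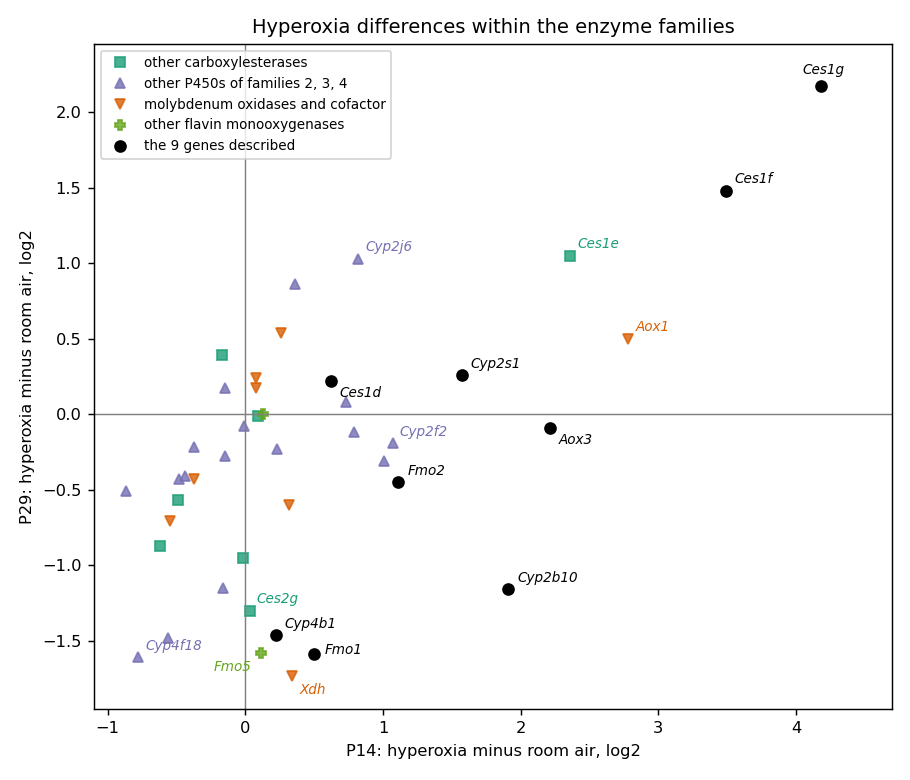
Hyperoxia minus room air on the log2 scale at P14 (horizontal) against P29 (vertical), 1 point per gene, for the 9 genes described (black) and the tested genes of 4 related lists; the axes share no array. Ces1e lies with Ces1f and Ces1g at the upper right, Aox1 near Aox3 at the right, and Xdh and Fmo5 beside Cyp4b1 and Fmo1 at the bottom.

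Genes for the partners that pass electrons to P450s and for receptors and other regulators known to control such enzymes were followed as well. Of 6 partners tested, 3 rose at P14 and 1 rose and 2 fell at P29 (1 rise at P14 and 1 fall at P29 with the actin term). Cyb5a, cytochrome b5, rose by 0.51 ± 0.08 (SE) at P14 and was at -0.09 at P29, Pgrmc1 rose by 0.39 ± 0.08 at P14 and was at 0.14 at P29, Cyb5r1 rose by 0.23 ± 0.09 and 0.62 ± 0.09, and Cyb5r2 fell by 0.41 ± 0.10 at P29. Of 10 receptor and other regulator genes tested, 3 rose and 3 fell at P14, and 3 rose and 2 fell at P29. With the actin term the counts were 0 and 2, then 0 and 1. The 3 that rose at P14 were Arnt, Keap1 (0.42 ± 0.13) and Ahr (0.36 ± 0.10). Ahr, which encodes the aryl hydrocarbon receptor, was at -0.17 at P29. The 3 that rose at P29 were Arnt, Nfe2l2 and Keap1 (0.40 ± 0.13), which do not encode receptors. Arnt, the partner of the aryl hydrocarbon receptor, rose by 0.40 ± 0.09 and by 0.25 ± 0.09, Nfe2l2, which encodes Nrf2, was at 0.13 at P14 and rose by 0.27 ± 0.07 at P29, Hnf4a fell by 0.42 ± 0.10 at P14, and Pparg fell by 0.35 ± 0.09 at P29. Nr1i3, the constitutive androstane receptor, and Nr1i2, the pregnane X receptor, lay below the filter, with no array above 4.41 and 4.71.

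Markers of the lung's cell types differed between the groups too, in directions that varied from list to list. Over all genes kept, 32.3% rose and 22.8% fell at P14, and 34.2% rose and 25.6% fell at P29. These shares are the background for the marker counts below that are given without the actin term. Of 8 club cell markers (Cyp2f2 among them), 5 rose and 2 fell at P14, and 1 rose and 4 fell at P29; the log2 of their summed level was 15.32 to 15.37 in P14 room air, 15.83 to 15.93 in P14 hyperoxia, 16.20 to 16.23 in P29 room air and 16.11 on all P29 hyperoxia arrays. With the actin term, 2 club cell markers rose and 1 fell at P14, and 1 rose and 0 fell at P29. Scgb1a1, the secretoglobin that defines club cells, rose by 0.35 ± 0.08 (SE) at P14 and was at -0.10 at P29. Of 7 alveolar type 2 markers, 3 fell at P14 and 4 at P29, and 0 rose, with sums of 15.95 to 16.08 and 15.70 to 15.87 at P14 and of 16.42 to 16.43 and 15.88 to 16.00 at P29 (room air, then hyperoxia). Of 7 endothelial markers, 5 fell and 0 rose at P29, where their sum was 14.82 to 14.84 in room air and 13.81 to 13.93 in hyperoxia, and 1 rose and 3 fell at P14 (14.33 to 14.37 and 14.09 to 14.18).

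Ciliated cell markers rose in 5 of 6 cases at P14 and fell in 1, and mesothelial markers rose in 4 of 4. At P29 the counts were 3 and 1 of 6 ciliated markers and 1 and 1 of 4 mesothelial ones. The ciliated sum was 11.46 to 11.72 in P14 room air, 11.60 to 11.69 in P14 hyperoxia, 12.52 to 12.74 in P29 room air and 11.92 to 12.13 in P29 hyperoxia. The mesothelial sum was 10.35 to 10.67, 11.34 to 11.53, 11.09 to 11.15 and 10.56 to 11.13 in the same order. Alveolar type 1 markers rose in 2 of 6 cases at P14 and in 3 at P29, where 2 fell. Fibroblast markers fell in 3 of 6 cases at P14, and rose in 2 and fell in 3 at P29, and macrophage markers fell in 3 of 6 and rose in 1 at P14 and fell in 4 at P29. With the actin term 0 of 4 mesothelial markers passed at either age, 3 ciliated markers rose at P14, and 1 rose and 1 fell at P29. With that term 1 alveolar type 2, 1 endothelial and 1 fibroblast marker fell at P14 and 0 macrophage markers passed. At P29 the term left falls in 3 alveolar type 2, 4 endothelial, 1 fibroblast and 2 macrophage markers, with 0 rises in these lists. For alveolar type 1 markers it left 1 rise and 0 falls at each age.

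Ces1d and Ces1f are also known from fat and liver. All 3 fat cell markers that passed the filter fell at P29 and 1 fell at P14 (2 and 0 with the actin term); the sum over the 4 measured was 7.75 to 7.98 in P14 room air, 7.18 to 7.53 in P14 hyperoxia, 10.74 to 11.35 in P29 room air and 8.73 to 9.61 in P29 hyperoxia. The 1 fall at P14 was that of Car3, with group means of 6.37 in room air and 5.19 in hyperoxia. Adipoq, which defines fat cells, had group means of 4.03, 3.91, 7.52 and 4.61, in the order given for the sum. Of 4 hepatocyte markers tested, 1 fell at each age and 0 rose (0 fell with the actin term), and Fgb was under 5 on every array. The part of these cell types in the enzyme differences was not tested.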

How the data were processed

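The deposited table holds 1 log2 value per probe set and array for 45101 probe sets of an Affymetrix mouse array; the authors made these values, and Partek 6.4 and GCRMA are named in the submitters' processing notes, with settings not given in the sources used here. Scale was read from the values: array medians were 6.41 to 6.47. The number of arrays limits the precision. The platform's annotation supplied gene symbols: 34945 had 1 symbol, 932 several and 9211 none, and 13 further control probe sets were left out. The brightest probe set by mean over 10 arrays led for each gene, and the others served as a check. Group means were fitted over all arrays with limma (version 3.58.1, R version 4.3.3; lmFit, then eBayes, 6 residual and 5.09 prior degrees of freedom), two-sided, with Benjamini-Hochberg adjustment over 14988 genes and a threshold of 0.05. The steps were tested on simulated data. Members, lists and tests were chosen with earlier results of these data known. Named list genes were the up to 4 of smallest p per pathway list, the 2 genes of highest Pearson r per member and the marker of highest mean per list. Alb, Adipoq, Car3, Fgb, Ces2e, Keap1, Ahr and the 2 receptors below the filter were named after their values were seen. The list counts with the actin, Y-linked and female-array alternatives were added after seeing the data.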

Additional observations from a re-analysis of the deposited data

Results flagged for a closer look

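For 4 of the genes every hyperoxia array lay above both room-air arrays at P14 and below both at P29. Of all genes kept, 489 (3.26%) showed this pattern, out of the 5931 that lay wholly above room air at P14. The P14 side was part of the choice of the members, so nothing is read from the share. The effect at P29 minus the effect at P14 was -3.07 for Cyp2b10, -1.68 for Cyp4b1, -2.09 for Fmo1 and -1.56 for Fmo2 on the log2 scale. The difference was not tested for these genes, because the P14 values were known when they were named. For Cyp4b1 the P14 side of the pattern is small (0.22 ± 0.11, SE).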

How the results depend on the processing

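With a term for the actin probes' 3' minus 5' difference, the genes past the threshold numbered 1391 at P14 and 2905 at P29, against 8250 and 8950 without it. That term moves with hyperoxia and widens the SE (for Ces1g at P14, 0.25 with it and 0.11 without). A call lost with it therefore cannot be assigned to RNA quality or to hyperoxia. With the Y-linked level as a term, 3996 genes differed with age in room air, against 6195. The sign of the P29 difference of Aox3, which did not pass the test, turned to 0.01 with the actin term and 0.04 with the female hyperoxia array alone, and lay between -0.24 and 0.06 when 1 array was left out. That of Cyp2s1 lay between -0.12 and 0.64 when 1 array was left out. On 1 probe set Fmo2 was lower at P29 than at P14 in hyperoxia (-0.57). Ces1f, Ces1g, Cyp2b10 and Cyp4b1 kept their P29 direction and call in each alternative run. The causes of these shifts were not tested. The female array is 1 sample, assumed to vary like the others. Replicate numbers did not pair the arrays (correlations of deviations -0.10 to 0.20 over 13 same-numbered pairs, 2 of them over 0.1); with a replicate block 8033 genes passed at P14 and 8783 at P29, and Ces1d was the 1 tested member to lose its call (adjusted p = 0.06).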
